A study of Yarrowia lipolytica with 9 samples.

Results

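The comparison set strain yl_11 against strain yl_10 of the oleaginous yeast Yarrowia lipolytica, with 3 libraries of each, chosen by their labelled strain names, of 9 libraries in the series. Per the labels, yl_11 and yl_10 alike, and the third strain yl_12, are transformants of strain ATCC 201249 that carry heterologous genes, which are not named, and all were grown in flasks at 28 °C with shaking at 250 rpm for 72 h. The series compares strains that make different levels of lycopene, but the labels give no lycopene level for any strain and do not say how yl_11 and yl_10 differ. The labels do not state whether a strain's 3 libraries are independent cultures, and each p-value here can reflect technical spread alone.

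Yarrowia lipolytica stores carbon as triacylglycerol in lipid bodies and is used as a host for products made from acetyl-CoA. Lycopene, a red carotenoid, is built there from the precursors of the mevalonate pathway, which also feeds sterol synthesis: acetyl-CoA is turned into mevalonate, then into the prenyl diphosphates, and introduced enzymes join and desaturate these to lycopene. Lipid and isoprenoid enzymes could not be picked out with certainty here. The tables used pair accessions with locus tags but give no product for any gene, so genes are described by tag, level, place and coding length, and no role is given to any of them.

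The read total was 10995778 to 16424183 in a yl_11 library and 7035777 to 14100668 in a yl_10 library, and 6147 of 6366 features had enough counts to be tested. The library least like the others of its strain was yl_11 replicate 1, yl_10 replicate 3 and, in the third strain, yl_12 replicate 3. The deviations of yl_11 replicate 1 and yl_10 replicate 3 from their strain means correlated across features at r = 0.37, a description over 2 libraries that share the normalization. That value was the highest of all pairs of a yl_11 and a yl_10 library, and the other pairs lay between -0.31 and 0.21. In a principal component analysis of the 6 libraries the first component, with 39.7% of the variance, set yl_10 replicate 3 apart from the other 5, and the second, with 31.1%, placed yl_10 replicates 1 and 2 on 1 side and the other 4 libraries on the opposite side. Results are therefore also given without the libraries that stand apart.

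Most transcripts had similar levels in both strains. The median log2 fold change (yl_11 over yl_10) was -0.00036, 83.8% of features lay within 0.25 of 0 on the log2 scale and 96.6% within 0.5. At an adjusted p below 0.05 in edgeR's quasi-likelihood test, 103 features rose (1.68% of those tested) and 153 fell (2.49%), together 4.16%, and 1200 features (19.5%) had an unadjusted p below 0.05. The changes were small: the median log2 fold change was 0.32 for the features that rose and -0.36 for those that fell. Larger falls outnumbered larger rises, with 47 falls and 14 rises of at least 0.5 on the log2 scale, and 9 falls and 1 rise of at least 2-fold (0.146% and 0.0163% of features tested). All 256 features called had their yl_11 libraries wholly above or wholly below their yl_10 libraries, as did 27.1% of all features tested (13.2% above and 13.9% below). No feature with at least 10 counts over the 3 libraries of 1 strain was at 0 in all libraries of the other.

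**Figure D1:**
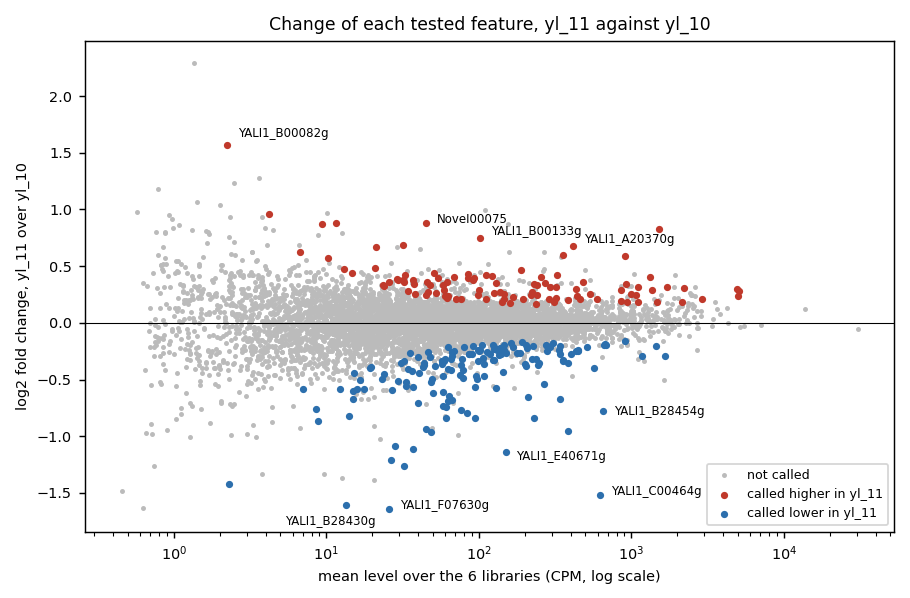
Log2 fold change of yl_11 over yl_10 for each of 6147 tested features (vertical axis) against its mean level over the 6 libraries in CPM (read counts scaled to a common library size, horizontal log axis), with features called higher and lower in yl_11 in colour. Called falls beyond -1, down to -1.64 for YALI1_F07630g, number 9, and YALI1_B00082g is the 1 called rise beyond 1.

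The number of calls depended on which libraries were in the fit. Calls numbered 38 higher and 59 lower without yl_11 replicate 1, 22 and 41 without yl_11 replicate 2, and 38 and 68 without yl_11 replicate 3. Without yl_10 replicate 1 they numbered 30 and 44, without yl_10 replicate 2 they numbered 45 and 58, and without yl_10 replicate 3 they numbered 128 and 168. The yl_12 libraries entered the fit through the shared estimate of spread, the scaling factors and the filter on low counts. Leaving out replicate 1, 2 or 3 of yl_12 gave 63 and 111, 62 and 104, or 246 and 273. Removing the least similar library of each strain, a choice made from the spread itself, gave 624 higher and 611 lower features, among which were 255 of the 256 called from all libraries, each in the same direction. With the 6 libraries of yl_11 and yl_10 alone, 140 were higher and 185 lower, and 240 of the 256 were among them. The share of higher calls, 40.2% with TMM scaling, was 25.2% with library totals as the only scaling (66 higher and 196 lower) and 28.2% with limma on log2(FPKM + 1) (55 higher and 140 lower).

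**Figure D2:**
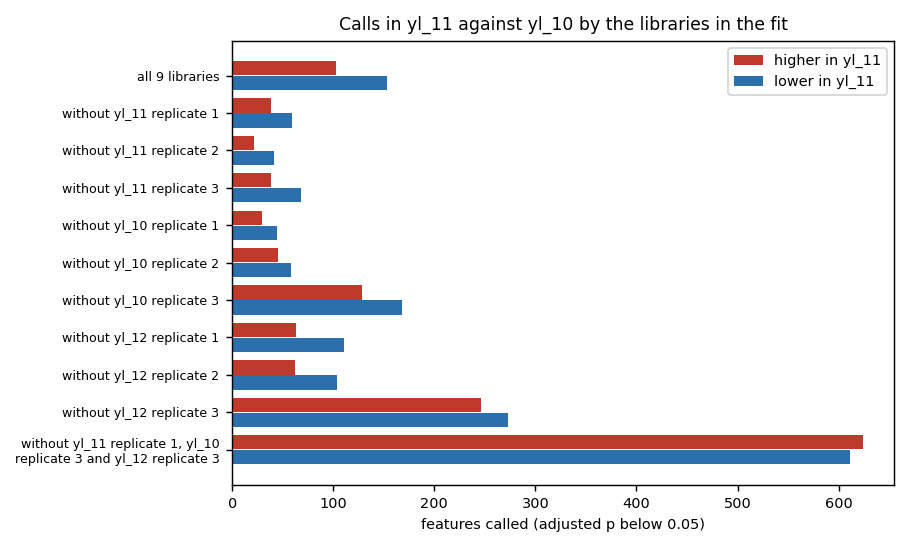
Number of features called higher (red) and lower (blue) in yl_11 than in yl_10 at an adjusted p below 0.05 (horizontal axis), for the fit of all 9 libraries, each fit with 1 library left out, and the fit without 3 libraries. The bars run between 22 and 624 features, and falls outnumber rises in each row but the last.

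The largest fall was that of YALI1_F07630g (XM_505015.1, chromosome F, coding length 1197 bases). Its level in CPM, counts scaled to a common library size, was 10.6, 11.4 and 15.9 in the yl_11 libraries, against 36.3, 38.7 and 42.8 in the yl_10 libraries, 3.13-fold lower in yl_11 (log2 fold change -1.64, SE 0.17, adjusted p = 0.00064). Its highest yl_11 library was below all yl_10 libraries, which the rule for naming features required of each fall named by size. YALI1_B28430g (XM_501196.1, chromosome B, 1698 bases) had 6.48, 7.49 and 6.07 CPM in yl_11 and 19.7, 21.0 and 20.4 CPM in yl_10, from 67 to 106 reads in a yl_11 library and 143 to 285 in a yl_10 library. Both strains were tight around their means (log2 fold change -1.60, SE 0.12, adjusted p = 1.97e-05).

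YALI1_C00464g (XM_501284.1, chromosome C, a short coding sequence of 456 bases) was the most abundant of the 9 called falls of at least 2-fold. It stood at 317, 327 and 325 CPM in yl_11, against 907, 874 and 999 CPM in yl_10, and gave the smallest adjusted p of the comparison (log2 fold change -1.52, SE 0.05, adjusted p = 6.43e-09). Per length its mean level was 709 ± 14 FPKM (SD, n = 3) in yl_11 and 2067 ± 108 FPKM in yl_10. The yl_11 libraries lay close together and far below those of yl_10. In yl_12 it averaged 805 CPM, nearer to yl_10 than to yl_11.

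YALI1_D30866g (XM_503206.1) was measured at 17.97, 19.4 and 20.1 CPM in yl_11 and 45.0, 43.1 and 49.6 CPM in yl_10. YALI1_D11159g (XM_502585.1), on the same chromosome, had 14.8, 15.9 and 16.9 CPM in yl_11 and 34.3, 32.9 and 43.5 CPM in yl_10. YALI1_D30866g fell by 1.26 (SE 0.17, adjusted p = 0.0045) and YALI1_D11159g by 1.21 (SE 0.14, adjusted p = 0.00064) on the log2 scale. YALI1_E40671g (XM_504765.1) was at 94.2, 92.6 and 92.8 CPM in yl_11 and at 197, 189 and 232 CPM in yl_10 (log2 fold change -1.14, SE 0.13, adjusted p = 0.0024). YALI1_E15555g (XM_503869.1) had 25.1, 20.7 and 23.5 CPM in yl_11 and 47.5, 44.8 and 59.0 CPM in yl_10 (-1.11, SE 0.11, adjusted p = 0.00014). In YALI1_D11159g, YALI1_E40671g and YALI1_E15555g alike, yl_10 replicate 3 was the highest of the 6 libraries. Without the 3 libraries that stand apart their log2 fold changes were -1.04, -1.06 and -1.07.

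YALI1_F34029g (XM_505914.1) stood at 15.2, 17.9 and 21.6 CPM in yl_11, against 40.8, 38.2 and 35.2 CPM in yl_10 (log2 fold change -1.08, SE 0.19, adjusted p = 0.018). Leaving out yl_11 replicate 1 (adjusted p = 0.057) or 2 (0.090), or yl_10 replicate 1 (0.070) or 2 (0.066), ended this call. YALI1_B26639g (XM_501131.1, 453 bases) had 27.9, 35.7 and 35.97 CPM in yl_11 and 70.1, 67.6 and 54.0 CPM in yl_10 (-0.96, SE 0.16, adjusted p = 0.013), and its call was lost without yl_10 replicate 1 (0.061) or 2 (0.053). YALI1_F26574g (XM_505642.1) was at 253, 254 and 278 CPM in yl_11 and at 466, 461 and 600.1 CPM in yl_10 (-0.96, SE 0.11, adjusted p = 0.0025). Apart from YALI1_F34029g and YALI1_B26639g, these falls kept their calls in all 20 alternative fits. The ninth called fall of at least 2-fold, YALI1_F03883g (XM_504911.1), lay under the level set for naming, with 1.04, 1.23 and 1.54 CPM in yl_11 and 3.32, 3.97 and 2.71 CPM in yl_10 (-1.42, SE 0.35, adjusted p = 0.044). It lost its call without any 1 of yl_11 replicates 1 to 3, yl_10 replicates 1 and 2 and yl_12 replicate 1 (0.061 to 0.15).

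The rises were smaller. The largest among genes with a locus tag and at least 10 CPM in yl_11 was YALI1_B00133g (XM_500336.1, chromosome B, 1572 bases), at 131, 123 and 127 CPM in yl_11 and 77.1, 84.6 and 65.0 CPM in yl_10 (log2 fold change 0.75, SE 0.08, adjusted p = 0.00024). Next was YALI1_B00049g (XM_500334.1, 531 bases), with 41.3, 40.5 and 36.3 CPM in yl_11 and 23.9, 24.3 and 25.5 CPM in yl_10 (0.69, SE 0.08, adjusted p = 0.00067). These genes belong to the same end of chromosome B, and for both the mean in yl_12 (74.9 and 22.7 CPM) was at or below that in yl_10.

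YALI1_A20370g (XM_500241.1) had 549.7, 497 and 491 CPM in yl_11, against 369.7, 349 and 242 CPM in yl_10 (log2 fold change 0.67, SE 0.15, adjusted p = 0.046). The low value of yl_10 replicate 3 widened the spread, and the log2 fold change was 0.46 without the libraries that stand apart. The call was lost without any 1 of yl_11 replicates 1, 2 and 3, yl_10 replicates 1 and 2 and yl_12 replicates 1 and 2 (adjusted p = 0.055 to 0.13), with the 6 libraries alone (0.087) and with library totals as the only scaling (0.066). YALI1_F10224g (XM_505102.1) was at 24.1, 28.3 and 25.6 CPM in yl_11 and at 16.6, 18.1 and 13.97 CPM in yl_10 (0.67, SE 0.11, adjusted p = 0.0045). YALI1_F28590g (XM_505716.1) had 429, 401 and 463.8 CPM in yl_11 and 292, 319 and 239 CPM in yl_10 (0.60, SE 0.10, adjusted p = 0.010). Both kept their calls in all 20 alternatives, and in both yl_10 replicate 3 was the lowest library.

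YALI1_D04128g (XM_502357.1), the most abundant of the 10 largest rises, was measured at 964, 1159 and 1145 CPM in yl_11 and 781, 806 and 578 CPM in yl_10 (log2 fold change 0.59, SE 0.12, adjusted p = 0.031). Its call was lost without yl_11 replicate 2 (0.12) or 3 (0.082), yl_10 replicate 1 (0.063) and yl_12 replicate 1 (0.051) or 2 (0.051). It was also lost with the 6 libraries alone (0.081), with library totals as the only scaling (0.052) and with a block for the replicate number (0.051). YALI1_F08111g (XM_505031.1) stood at 12.5, 12.3 and 11.8 CPM in yl_11 and 8.08, 8.77 and 7.84 CPM in yl_10 (0.57, SE 0.11, adjusted p = 0.016), a call lost without yl_11 replicate 1 (0.060) or 2 (0.069) and yl_10 replicate 1 (0.068). In YALI1_E31369g (XM_504424.1) the libraries read 23.7, 24.3 and 25.5 CPM in yl_11 and 17.4, 18.9 and 15.96 CPM in yl_10 (0.49, SE 0.08, adjusted p = 0.0086), a call that ended without yl_10 replicate 1 (0.051). YALI1_C28456g (XM_502049.1), which kept its call throughout, had 215, 223 and 223 CPM in yl_11 and 165, 170 and 142 CPM in yl_10 (0.47, SE 0.06, adjusted p = 0.0011). YALI1_E05681g (XM_503555.1), the smallest of these rises, had 17.97, 16.5 and 16.04 CPM in yl_11 and 12.4, 13.7 and 11.1 CPM in yl_10 (0.44, SE 0.10, adjusted p = 0.035). Its call was lost in 8 of the 9 fits with 1 library left out (adjusted p = 0.051 to 0.13), all but the fit without yl_12 replicate 3.

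Of the 6147 features tested, 5342 had a locus tag and gave 233 of the 256 calls. Features without a locus tag gave the other 23, a smaller share than the 4.16% called over all features. XM_501880.1, whose coding length is only 150 bases, had 14.3, 14.8 and 15.7 CPM in yl_11 and 7.88, 8.65 and 7.70 CPM in yl_10 (log2 fold change 0.88, SE 0.10, adjusted p = 0.00064). Novel00075, a feature of 3476 bases that carries a running number of the authors, had 56.4, 60.3 and 59.9 CPM in yl_11 and 33.4, 30.9 and 31.1 CPM in yl_10 (0.88, SE 0.07, adjusted p = 1.97e-05). Both rises held in all 20 alternatives. Among the falls, XM_502183.1 had 13.4, 11.6 and 13.6 CPM in yl_11 and 21.3, 19.99 and 15.96 CPM in yl_10 (-0.58, SE 0.12, adjusted p = 0.021), lost without any 1 of the yl_11 libraries or yl_10 replicate 1 or 2 (0.052 to 0.11). XM_501223.1 had 67.4, 69.0 and 72.3 CPM in yl_11 and 92.8, 88.0 and 78.9 CPM in yl_10 (-0.32, SE 0.08, adjusted p = 0.048). This call was lost without any 1 of yl_11 replicates 1, 2 and 3, yl_10 replicates 1 and 2 and yl_12 replicates 1 and 2 (0.053 to 0.19). XM_503602.1, chosen after its values were seen because it was abundant and changed strongly, had 1944, 2013 and 1886 CPM in yl_11 and 1089, 1227 and 969 CPM in yl_10 (0.83, SE 0.11, adjusted p = 0.0044).

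**Figure D3:**
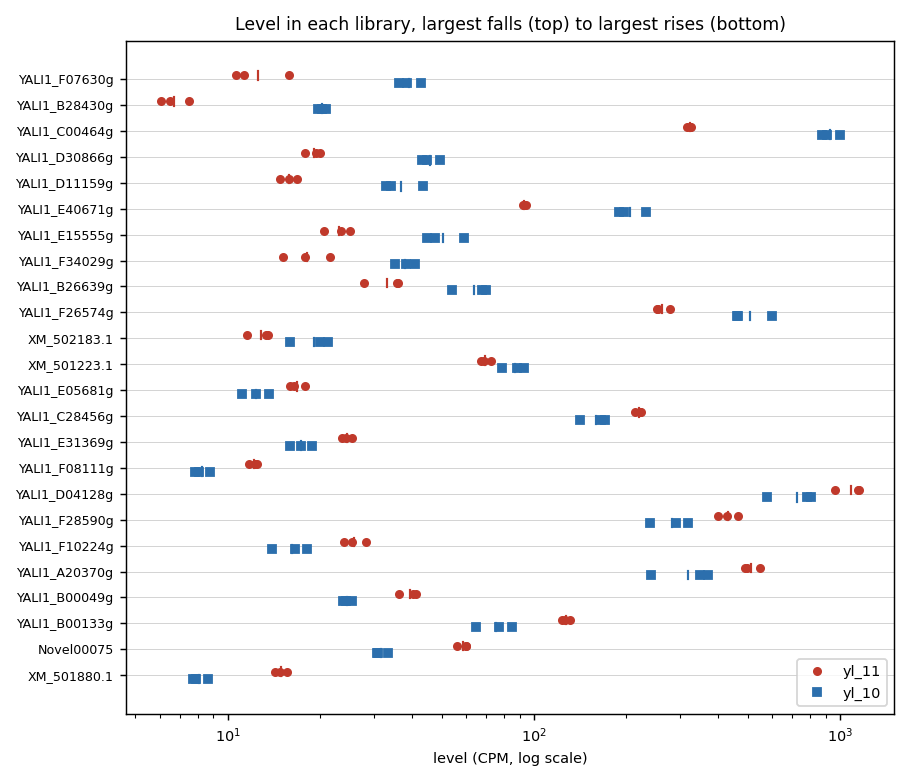
Level in each library (CPM, horizontal log axis) of the 10 largest falls and 10 largest rises among genes with a locus tag and of the 4 named features without one, ordered by log2 fold change. Circles are yl_11 libraries, squares yl_10 libraries and short bars the strain means. The symbols of both strains do not overlap in any row, which the rule for naming features required.

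Features with a running number, which lie outside the RefSeq set, were called higher more often than lower. Of 359 tested, 8 were called higher and 1 lower (2.23% and 0.279%, against 1.68% and 2.49% of all features), and their median log2 fold change was 0.084, against -0.0035 for RefSeq features. The features called higher were, besides Novel00075, Novel00225 (0.63), Novel00061 (0.48), Novel00124 (0.44), Novel00098 (0.39), Novel00199 (0.30), Novel00224 (0.26) and Novel00332 (0.22), and the 1 called lower was Novel00309 (-0.20). Median deviations of these features from the mean of the 6 libraries were 0.027, 0.041 and 0.038 on the log2 scale in the yl_11 libraries and -0.015, -0.0089 and -0.11 in the yl_10 libraries. The libraries did not overlap (exact permutation test, 2-sided p = 0.1, the smallest that 3 against 3 allows), and yl_10 replicate 3 was the lowest by far. The median log2 fold change of these features was 0.062 without yl_10 replicate 3 and 0.047 among features with a mean of at least 10 CPM, the lowest value in the alternatives.

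The 5 most abundant genes with a locus tag among the called rises had small changes. YALI1_A10857g (XM_499957.1) had 5203, 5771 and 5712 CPM in yl_11 and 4795, 4569 and 4372 CPM in yl_10 (log2 fold change 0.28, SE 0.06, adjusted p = 0.021). YALI1_C08262g (XM_501515.1) had 5131, 5480 and 5629 CPM in yl_11 and 4447, 4445 and 4340 CPM in yl_10 (0.30, SE 0.05, adjusted p = 0.0071). YALI1_C26377g (XM_501999.1) had 2447, 2503 and 2389 CPM in yl_11 and 1999.7, 1917 and 2012 CPM in yl_10 (0.31, SE 0.05, adjusted p = 0.0044). These rises were above the spread of both strains, but of the 3 genes YALI1_C26377g alone kept its call in all alternatives: that of YALI1_C08262g was lost without yl_11 replicate 2 (0.057), and that of YALI1_A10857g without yl_11 replicate 2 (0.12) or 3 (0.088) or yl_10 replicate 2 (0.074). YALI1_B28659g (XM_501205.1), at 5600, 5431 and 5274 CPM in yl_11 and 4351, 4520 and 4992 CPM in yl_10, was called too (0.23, SE 0.06, adjusted p = 0.042). YALI1_F03215g (XM_002143065.1, 273 bases) followed at 3075, 3137 and 3135 CPM in yl_11 and 2734, 2664 and 2660 CPM in yl_10 (0.21, SE 0.05, adjusted p = 0.026). The call of YALI1_B28659g was lost without any 1 of yl_11 replicates 1 to 3, yl_10 replicates 1 and 2 and yl_12 replicates 1 and 2 (0.062 to 0.16), and that of YALI1_F03215g without any 1 of yl_11 replicates 1 to 3 and yl_10 replicates 1 and 2 (0.070 to 0.12). Per length, YALI1_A10857g with 15741 ± 957 FPKM (SD, n = 3) in yl_11 and 13173 ± 801 FPKM in yl_10 was the highest of these 5 genes.

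Among genes with a locus tag called lower, the 5 with the highest mean over the 6 libraries fell by less still, with log2 fold changes between -0.21 and -0.16. YALI1_B09592g (XM_500606.1) had 1363, 1309 and 1359 CPM in yl_11 and 1517, 1509 and 1632 CPM in yl_10 (-0.21, SE 0.05, adjusted p = 0.029). YALI1_E19172g (XM_504004.1) had 867, 862 and 853 CPM in yl_11 and 980.3, 958 and 951 CPM in yl_10 (-0.16, SE 0.04, adjusted p = 0.046). YALI1_C31971g (XM_502167.1, 4581 bases), YALI1_E07744g (XM_503628.1) and YALI1_E24922g (XM_504211.1) averaged 631, 626.5 and 614 CPM in yl_11 and 724, 712 and 704 CPM in yl_10. All 5 calls were lost without any 1 of the yl_11 libraries, yl_10 replicates 1 and 2 and yl_12 replicate 1, with adjusted p-values up to 0.18, and 4 of the 5 (all but YALI1_C31971g) also without yl_12 replicate 2. YALI1_E07744g lost its call without yl_10 replicate 3 as well (0.053).

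The precision of the fold change went with the level of the transcript. The median SE of the log2 fold change was 0.26 in the least abundant of 10 equal abundance classes (up to 4.94 CPM) and 0.053 in the most abundant class (at least 348 CPM). Calls numbered 2 higher and 1 lower of 615 features in the least abundant class and 30 higher and 18 lower of 615 in the most abundant class. These shares were 0.325% and 0.163% in the least abundant class and 4.88% and 2.93% in the most abundant, against 1.68% and 2.49% of all features. In each class between, more falls than rises were called, for example 10 higher and 25 lower of 614 features between 47.9 and 69.96 CPM.

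The direction of change went with coding length. RefSeq features were put in 4 length classes of nearly equal size. In the shortest class of RefSeq features (78 to 810 bases) 41 of 1457 were called higher and 15 lower, and in the longest class (1833 to 19617 bases) 10 of 1446 were called higher and 50 lower. These shares were 2.81% and 1.03% in the shortest class and 0.692% and 3.46% in the longest, against 1.68% and 2.49% over all features. The classes between gave 22 and 40 of 1440, and 22 and 47 of 1445. The median log2 fold change was 0.050 in the shortest class and -0.036 in the longest. The pattern was also seen outside the most abundant of the 10 abundance classes. There 27 of 1326 features in the shortest class were called higher and 13 lower (2.04% and 0.98%). In the longest class 3 of 1239 were called higher and 43 lower (0.242% and 3.47%). The share of 2.04% is near the 1.68% called higher over all features. Within the most abundant class, 14 of 131 features of the shortest class were called higher and 2 lower. Of the 207 there from the longest class, 7 were called higher and 7 lower, so falls did not outnumber rises.

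**Figure D4:**
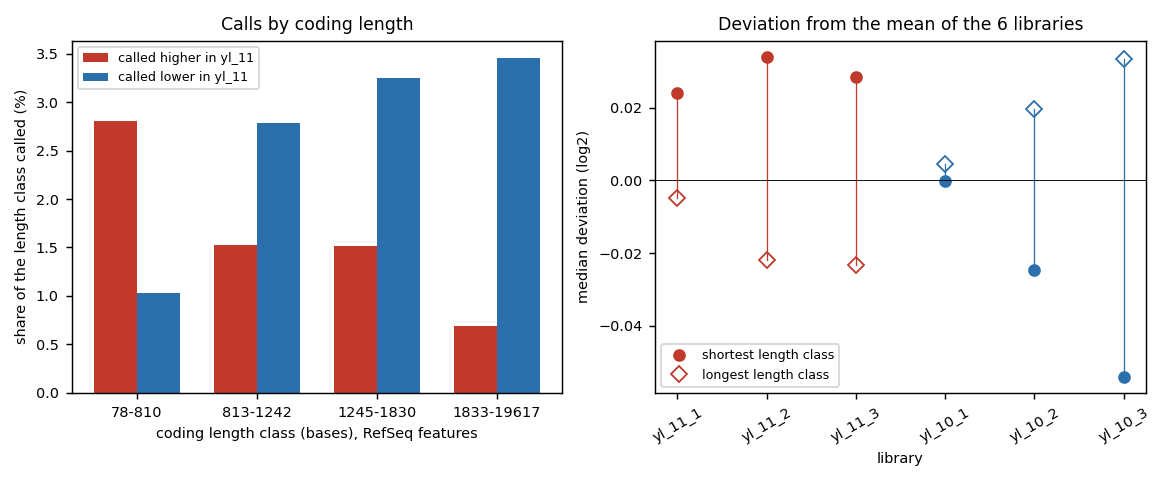
Left, share of RefSeq features called higher and lower in yl_11 in each class of coding length (bars from 0, in percent). Right, median deviation of the shortest and longest class from the mean of the 6 libraries (log2) in each library: the shortest class lies above the longest in all 3 yl_11 libraries and below it in all 3 yl_10 libraries, most of all in yl_10 replicate 3.

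Each library carried this length pattern to a different degree. The median deviation of the shortest class exceeded that of the longest by 0.029, 0.056 and 0.052 on the log2 scale in the yl_11 libraries, and the difference was -0.0046, -0.044 and -0.087 in the yl_10 libraries. The means were 0.046 ± 0.015 in yl_11 and -0.045 ± 0.041 in yl_10 (SD, n = 3), and the libraries did not overlap (exact permutation test, 2-sided p = 0.1, the smallest possible here). The gap between the shortest and longest class in median log2 fold change was 0.086, and it was 0.069 without yl_10 replicate 3 and 0.071 without the 3 libraries that stand apart. The gap of 0.086 is small beside the largest named changes. It is not small beside the abundant calls, such as YALI1_E19172g (-0.16, 2139 bases) and YALI1_F03215g (0.21, 273 bases). The direction of these 2 went with the length pattern, and that of YALI1_B28659g (0.23, 2751 bases), another abundant call, went against it. Within single libraries, the difference between the shortest and longest class was largest in size in yl_10 replicate 3 (-0.087). Without yl_10 replicate 1 the gap in median log2 fold change was larger, at 0.108. The part of such differences between libraries in the calls of short and long genes was not tested.

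By chromosome, medians of the log2 fold change lay between -0.014 (chromosome D) and 0.0081 (chromosome A). Calls numbered 9 higher and 8 lower of 522 tested on A, 20 and 21 of 797 on B, 17 and 15 of 712 on C, 11 and 32 of 917 on D, 17 and 33 of 1243 on E, and 15 and 35 of 1151 on F. The share called higher lay between 1.2% (D) and 2.51% (B) and the share called lower between 1.53% (A) and 3.49% (D), against 1.68% and 2.49% of all features, and differences between chromosomes were not tested. Over 5198 windows of 25 neighbouring tested genes, the window median lay between -0.11 and 0.092, so no stretch of that size approached a 2-fold difference in level. Within the first or last 20 protein-coding genes of a chromosome, 3 genes were called higher and 6 lower of 134 tested (2.24% and 4.48%, against 1.68% and 2.49% of all features), a difference that was not tested.

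The neighbours of the leading genes showed both isolated and grouped changes. YALI1_C00464g was the only called gene in its stretch: YALI1_C00442g before it averaged 3.36 CPM in yl_11 and 3.38 CPM in yl_10, and YALI1_C00503g after it 8.92 CPM in yl_11 and 7.86 CPM in yl_10, neither of them called (adjusted p = 0.95 and 0.65). The nearest tested genes around YALI1_A20370g were not called either, with log2 fold changes of 0.075 (SE 0.12) for YALI1_A20283g and 0.077 (SE 0.09) for YALI1_A20398g. Next to YALI1_F07630g, YALI1_F07655g averaged 35.3 CPM in yl_11 and 35.7 CPM in yl_10. The gene on its other side, YALI1_F07604g, was scarce, at 0.12, 0.58 and 0.72 CPM in yl_11 and 1.24, 1.05 and 0.71 CPM in yl_10 (adjusted p = 0.22).

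YALI1_B28430g was followed by YALI1_B28454g (XM_501197.1), which had 481, 453 and 513 CPM in yl_11 and 835, 798 and 848 CPM in yl_10 (log2 fold change -0.78, SE 0.07, adjusted p = 7.96e-05), a fall that held in all 20 alternatives. YALI1_B28472g, the next gene, had 89.9, 89.5 and 93.3 CPM in yl_11, against 124, 130.2 and 123 CPM in yl_10 (-0.47, SE 0.06, adjusted p = 0.0011). The gene before YALI1_B28430g, YALI1_B28394g, pointed the other way, with 5.01, 5.26 and 4.62 CPM in yl_11 and 2.003, 3.74 and 2.99 CPM in yl_10 (0.83, SE 0.23), but missed the threshold (adjusted p = 0.062). The test passed without the libraries that stand apart (adjusted p = 0.010), with a term for them (0.017) and without yl_12 replicate 3 (0.033). In 15 of the 18 alternatives that gave it an adjusted p, YALI1_B28394g was not called (up to 0.27). The libraries that stand apart were chosen from the spread itself. YALI1_B28394g and YALI1_B28430g thus had fold changes of opposite sign, only the second of them called with all libraries.

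At the start of chromosome B, YALI1_B00049g, YALI1_B00082g and YALI1_B00133g hold places 2, 3 and 6 in the table's order of 1146 protein-coding genes. No gene placed between them in that order was tested, but tested features without a locus tag have no place in it. The scarce YALI1_B00082g (XM_500335.1) was counted at 53, 47 and 33 reads in yl_11 and 18, 10 and 6 reads in yl_10, or 3.24, 3.87 and 2.99 CPM in yl_11 and 1.24, 1.17 and 0.86 CPM in yl_10. It gave the only called rise of at least 2-fold (log2 fold change 1.57, SE 0.24, adjusted p = 0.0044), a call that held in the 18 alternatives that gave it an adjusted p. The next gene, YALI1_B00198g, was at 64.3 CPM in yl_11 and 65.6 CPM in yl_10 (adjusted p = 0.83), which ends the run of called rises. One gene further on, YALI1_B00214g was not called, at 40.1, 51.6 and 58.3 CPM in yl_11 and 84.4, 82.9 and 63.7 CPM in yl_10 (-0.64, SE 0.16, adjusted p = 0.059).

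**Figure D5:**
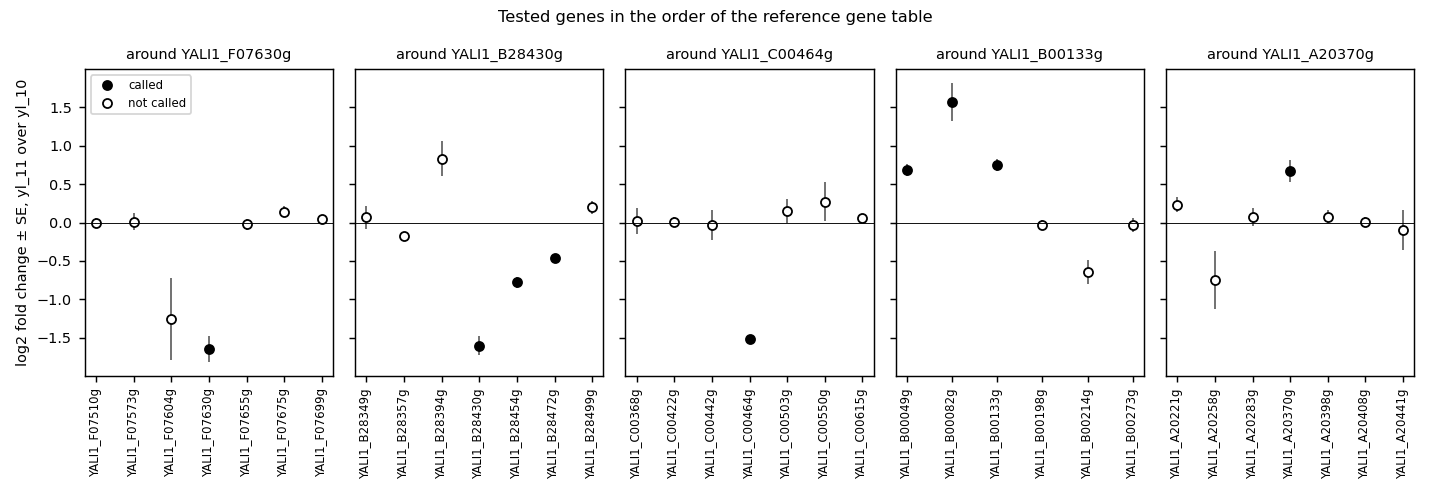
Log2 fold change of yl_11 over yl_10 with its SE (vertical axis) for the tested genes on either side of 5 leading genes, in the order of the reference gene table; filled circles are called, open circles not. No plotted gene beside YALI1_C00464g, YALI1_A20370g or YALI1_F07630g is called, while YALI1_B28430g and YALI1_B00133g have called neighbours of the same sign.

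The third strain, yl_12, was not part of the contrast, and its levels are set beside the calls as a description. Of the 103 features that rose, the yl_12 mean lay beyond that of yl_11 in 54, between the strains in 37 and below that of yl_10 in 12. Of the 153 that fell, it lay below that of yl_11 in 67, between in 78 and above that of yl_10 in 8. On the log2 scale yl_12 was nearer to yl_11 for 74 of the rises and 128 of the falls. The same share over all features tested is not given here, so these counts cannot be read as particular to the called features. Among the named falls, yl_12 averaged 13.9 CPM for YALI1_F07630g, 21.5 CPM for YALI1_D30866g and 71.6 CPM for YALI1_E40671g, near or below the level of yl_11. The yl_12 mean was nearer to yl_10 for 8 of the 24 features named by size, namely YALI1_C00464g, YALI1_B00133g, YALI1_B00049g, YALI1_A20370g, YALI1_F08111g, YALI1_E05681g, XM_501223.1 and Novel00075. Novel00075 averaged 34.0 CPM in yl_12 and YALI1_F08111g 8.15 CPM, both about as in yl_10. These placings rest on strain means and were not tested.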

How the data were processed

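Total RNA of 9 libraries was sequenced as paired-end reads of 150 bases, per the labels' protocols. The authors deposited raw read counts and FPKM values, with 1 column per library. The submitters' processing notes list HTSeq 0.6.1 and DESeq 1.18.0 with no role. No source used here gives an aligner, a genome build or the use of strand, so reads of overlapping or near-identical genes may be split or lost. The deposited FPKM values equal the count divided by length and library total, which gave each feature's length, a multiple of 3 for 100% of RefSeq features and hence a coding length. Accessions were matched without version to the RefSeq gene table of ASM176148v1, and 5430 of 5959 (91.1%) matched; because the authors' build is not known, none of its coordinates are given.

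edgeR 4.0.16 (R 4.3.3) was run on the counts (quasi-likelihood test) with TMM factors (0.970 to 1.03), the default expression filter and robust dispersions, all 9 libraries in 1 fit with strain as the only term, and Benjamini-Hochberg adjustment over 6147 features. CPM values are scaled by TMM. Alternatives used DESeq2 1.42.0 and limma 3.58.1. Named genes were the 10 largest rises and 10 largest falls with a locus tag (adjusted p below 0.05, at least 10 CPM in the higher strain, no overlap), 2 of each without a tag, the 5 most abundant calls each way with a tag, and the tested neighbours of the 3 largest each way. The comparison and the rule were chosen with earlier results of these data known. Lists by product or protein signature, and promoter motifs, were not run, since the tables used here hold neither products nor sequences. In counts simulated for this comparison, 74% of features changed by 0.5 (log2 scale) were called, as were 95% of those changed by 1. Of the calls, 6.63% were unchanged features. Shifts common to many features of a library, as in yl_10 replicate 3, were not part of the simulation. The simulated shares may therefore not hold for the real libraries. Within a strain, pairs of libraries differed by more than counting noise (chi-square per degree of freedom 1.86 to 10.8), so none was treated as a library deposited a second time; this does not show whether libraries of a strain share a culture.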

Additional observations from a re-analysis of the deposited data

How the results depend on the processing

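Of the 36 features with a call that the naming rule gave, 17 kept it under all 20 alternatives and YALI1_B00082g kept it under the 18 that gave it an adjusted p, and none changed sign. The losses given above for single features are mostly those with 1 library left out, and not every loss in the other alternatives is listed. The counts of features called higher and lower were 66 and 196 with library totals only, where 25.2% of calls were higher against 40.2% with TMM. They were 157 and 216 with DESeq2, 55 and 140 with limma on log2(FPKM + 1), 56 and 139 on log2(FPKM + 0.1), 624 and 611 without the 3 libraries that stand apart (with 15 falls of at least 2-fold), and 355 and 452 with a term for them. A block for the replicate number left 59 higher and 92 lower. Of the 256 calls, 214 were among those with library totals only, 245 among those of DESeq2 and 148 among those of the block. Leaving out 1 library gave 22 to 246 higher, 41 to 273 lower and 8 to 13 falls of at least 2-fold. DESeq2 size factors in edgeR, other filters on low counts and the fit of 6 libraries kept both counts within 1.5 times. The gap in median log2 fold change between short and long features was 0.069 to 0.11 in all alternatives. Deviations of same-numbered libraries of yl_11 and yl_10 from their strain means correlated at -0.22, 0.15 and -0.23 for numbers 1, 2 and 3. Deviations from a mean of 3 libraries constrain each other, so these values cannot decide whether replicate numbers pair the libraries. Per the labels the samples share only a number. The causes of these differences were not tested. Of 16 features past a 2-fold change without a call, 12 were under 10 CPM in both strains, where the SE is larger, and the part of depth in missed calls was not tested. Alternatives for product or protein signature groups and for promoter motifs were not run, since those groups could not be formed from the tables used here.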

Other observations

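Features past a 2-fold change that were not called numbered 16, of which 10 were lower and 6 higher in yl_11. The features in the following sentences were chosen after their values were seen. YALI1_C10762g had 18.7, 6.25 and 6.98 CPM in yl_11 and 8.64, 11.2 and 72.0 CPM in yl_10 (log2 fold change -1.39, SE 0.97, adjusted p = 0.48 in edgeR). YALI1_F18740g had 11.4, 3.37 and 4.53 CPM in yl_11 and 4.21, 4.44 and 47.7 CPM in yl_10. YALI1_A12540g had 6.30, 4.11 and 4.80 CPM in yl_11 and 3.59, 4.79 and 34.2 CPM in yl_10. In each of these 3 genes yl_10 replicate 3 was the highest of the 6 libraries, followed by yl_11 replicate 1.

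These 3 genes and YALI1_C20054g, another of the 16, share a coding length of 1107 bases. Of 15 tested features with that length, yl_10 replicate 3 was the highest of the 6 libraries in 8 and another library in 7. The 8 include the genes from which the length was picked. The same share over all features tested is not given here, so these counts cannot be read as particular to that length. Among the 8, the abundant YALI1_E17326g had 1679, 1123 and 1229 CPM in yl_11 and 1370, 1385 and 2981 CPM in yl_10, and YALI1_E19036g had 2.26, 1.97 and 1.99 CPM in yl_11 and 1.24, 1.29 and 11.1 CPM in yl_10. Whether features of equal length are near-identical copies that share reads was not tested, so their values are uncertain. YALI1_E15211g and YALI1_F20943g, of the same length, also had their highest value in yl_10 replicate 3, but by little, at 20.5 and 53.7 CPM. Among the 7, YALI1_A00325g was at 639.5, 604 and 603 CPM in yl_11 and 570.5, 552 and 638 CPM in yl_10. The pattern was also seen at another length: YALI1_B26033g (1116 bases) had 29.0, 5.35 and 6.25 CPM in yl_11 and 3.94, 3.16 and 86.6 CPM in yl_10.

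The largest uncalled rise was XM_501401.1, with 2.81, 3.21 and 0.72 CPM in yl_11 and 0.48, 0.58 and 0.29 CPM in yl_10 (log2 fold change 2.29, SE 0.76, adjusted p = 0.13).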
